A study of Mus musculus with 2 samples.

Results

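Transcripts of 9 genes for chemokine receptors and formyl peptide receptors were followed in nucleoplasmic RNA of mouse macrophages. The genes are the formyl peptide receptors Fpr1 and Fpr2, the chemokine receptors Ccr1, Ccr2, Ccr3, Ccr7, Cx3cr1 and Cxcr4, and the receptor-like gene Ccrl2. They were chosen by name from 55536 annotated genes, 22028 of them protein-coding, and all 9 were found in both libraries. The cells were macrophages derived from bone marrow of C57BL/6J mice, that is, grown in culture from marrow precursors. They had received 100 ng/ml Lipid A, the part of bacterial endotoxin that Toll-like receptor 4 recognises, for 12 h and had then been kept without it for 12 h. They were taken at 0 min of a second exposure at the same dose. Total RNA of the nucleoplasm, depleted of ribosomal RNA, was sequenced in 2 libraries labelled as biological replicates 1 and 2, made from 1 µg and 500 ng of RNA. The biosamples are separate but carry the same donor label, sex and age were not collected, and the starting amount and the replicate number cannot be told apart. There is 1 group and no untreated group was analysed here, so levels are described and no effect of Lipid A can be read from them. Replicates 1 and 2 hold 22907877 and 18612405 expected counts in annotated genes, of which the 9 genes took 2322 and 2227.

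Chemokine receptors are G protein-coupled receptors in the cell membrane that turn a gradient of chemokine into directed movement, mostly through the inhibitory G protein Gi. Formyl peptide receptors belong to the same superfamily and detect peptides that start with formylmethionine, which bacteria and mitochondria make. On monocytes and macrophages these receptors steer the cells to sites of infection, and they are desensitised by kinases and arrestins once a ligand has bound.

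The receptor genes differ in a short stretch at the end of the third transmembrane helix, which takes part in coupling to G proteins. Most G protein-coupled receptors carry an aspartate, an arginine and a tyrosine there. The 27 coding bases around these codons are printed because they separate the 9 genes into 3 kinds. Capitals mark the 3 codons, or, in a gene without them, the codons aligned to those of Ccr1. The bases were read from the GENCODE transcripts of GRCm38.
Ccr1: acgattGACAGATACctggccattgtc
Ccr2: acaattGATAGGTACttggctattgtt
Ccr3: acaattGACAGATACctggctatcgtc
Ccr7: agcattGACCGCTACgtagccatcgtc
Cx3cr1: agcatcGACCGGTACcttgccatcgtc
Cxcr4: agcctgGACCGGTACctcgctattgtc
Fpr1: gcactgGACCGCTGTatttgtgttctg
Fpr2: gccttgGACCGCTGCatttgtgttctg
Ccrl2: cttgtgCAAGGATACagggtgttttcc
The windows lie at chr9:123964084-123964110, chr9:124106126-124106152, chr9:124029023-124029049, chr11:99145618-99145644, chr9:120051936-120051962, chr1:128589500-128589526, chr17:17877318-17877344, chr17:17893101-17893127 and chr9:111056015-111056041. Those of Ccr2, Ccr3 and Fpr2 are on the plus strand and the other 6 on the minus strand. In 6 of the 9 genes all 3 codons were present. Fpr1 and Fpr2 kept the aspartate and arginine codons and had a cysteine codon after them. Ccrl2, which binds the attractant chemerin and is not known to signal through G proteins, had neither the aspartate nor the arginine codon.

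Transcripts of 6 of the 9 receptor genes reached 1 TPM in both libraries, and Fpr2, Ccrl2 and Fpr1 led them. TPM is an abundance per transcript length, scaled to a fixed total per library. Among all protein-coding genes 44.4% reached 1 TPM in both libraries, and among all annotated genes 22.4% did. At 10 TPM in both libraries 1 receptor gene was left, Fpr2, beside 19.7% of protein-coding genes. The other 3 genes, Ccr7, Ccr3 and Cx3cr1, were under 1 TPM in both libraries. The median over the 9 genes was 3.82 and 7.04 TPM in replicates 1 and 2, against 0.42 and 0.445 TPM over all protein-coding genes. On the log2 scale with 0.1 TPM added, the median level was 2.40 ± 0.61 for the receptor genes and -0.91 ± 0.05 for protein-coding genes (SD, n = 2 libraries). Many protein-coding genes are hardly expressed, and among genes past edgeR's filter on low counts the median was 2.49 ± 0.50 for the 8 receptor genes that passed and 2.87 ± 0.01 for protein-coding genes. In these bulk libraries, fewer cells with a transcript and less of it per cell cannot be told apart.

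**Figure D1:**
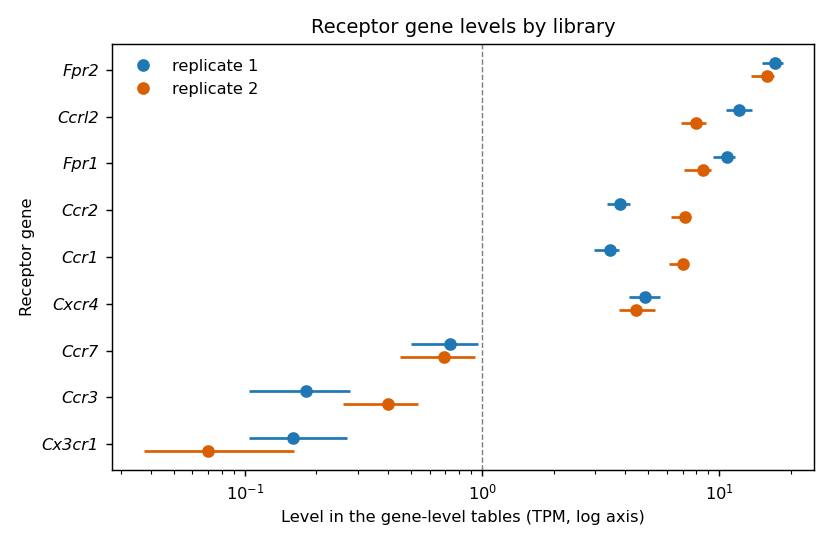
Level of each receptor gene in TPM on a log axis, with 1 point per library; horizontal lines are the interval that the authors' table gives for the TPM, whose level is not stated, and the dashed line is 1 TPM. Fpr2 at 17.2 and 15.9 TPM lies above all others, and Ccr7, Ccr3 and Cx3cr1 lie left of 1 TPM in both libraries.

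Fpr2, which recognises formyl peptides as well as lipid mediators and the protein annexin A1, had the highest level of the 9 genes. Its TPM was 17.2 in replicate 1 and 15.9 in replicate 2, a mean of 16.6 ± 0.912 TPM (SD, n = 2), from expected counts of 420 and 323. This put it at percentile 86.0 of protein-coding genes. Fpr1, a receptor for bacterial formyl peptides, had 10.8 and 8.50 TPM in replicates 1 and 2, from counts of 342 and 231. The pair's ranges did not overlap, and the TPM of Fpr2 was 1.59 times that of Fpr1 in replicate 1 and 1.88 times in replicate 2. The genes are neighbours on chromosome 17 and point away from each other. Fpr1 (ENSMUSG00000045551.7) lies at 17876471 to 17883940 on the minus strand and Fpr2 (ENSMUSG00000052270.7) at 17887824 to 17893952 on the plus strand, with 3883 bases between them, all in mm10. Their coding sequences were identical at 69.0% of 1050 aligned bases, and the longest identical run was 50 bases. Fpr2 overlaps the annotated gene Fpr3, whose expected counts were 0 and 1, so that few reads were assigned to the overlap partner. None of the 5 other formyl peptide receptor genes of the mouse reached 1 TPM. Fpr-rs3, Fpr-rs4, Fpr-rs6 and Fpr-rs7 had an expected count of 0 in both libraries, and for Fpr-rs4 a count of 3 would correspond to 0.140 and 0.162 TPM in replicates 1 and 2.

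Ccrl2 (ENSMUSG00000043953.12, chromosome 9, 111054486 to 111057519, minus strand) was second in the order by mean, at 10.045 ± 2.96 TPM (SD, n = 2). Its values were 12.1 and 7.95 TPM in replicates 1 and 2, from expected counts of 605 and 356. Its range overlapped that of Fpr1, so the order of these neighbours was not resolved. Chemerin is also the ligand of the signalling receptor Cmklr1, with 22.5 and 11.6 TPM, from counts of 1719 and 760. Ccrl2 and Cmklr1 were both above 1 TPM in both libraries, and both had the lower value in replicate 2. The chemerin gene itself, Rarres2, had 0.21 and 0.14 TPM.

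Fpr2, Ccrl2 and Fpr1 together held 75.2% of the summed TPM of the 9 genes in replicate 1 and 62.1% in replicate 2. Their promoter windows are printed because these genes carry most of the signal. Each window runs from 250 bases before to 50 after a RefSeq start in GRCm38.p6, at chr17:17887574-17887873 on the plus strand for Fpr2, chr9:111057469-111057768 on the minus strand for Ccrl2 and chr17:17883890-17884189 on the minus strand for Fpr1. RefSeq gives 3 starts for Ccrl2, and the window of the farthest upstream start is shown. Capitals mark matches, on either strand, to the TATA box (TATAAA), the core of the myeloid factor PU.1 (GAGGAA), the kappaB pattern (GGNNNTTCC), the AP-1 pattern (TGANTCA), the interferon-stimulated response element and the CCAAT box (CCAAT).
Fpr2: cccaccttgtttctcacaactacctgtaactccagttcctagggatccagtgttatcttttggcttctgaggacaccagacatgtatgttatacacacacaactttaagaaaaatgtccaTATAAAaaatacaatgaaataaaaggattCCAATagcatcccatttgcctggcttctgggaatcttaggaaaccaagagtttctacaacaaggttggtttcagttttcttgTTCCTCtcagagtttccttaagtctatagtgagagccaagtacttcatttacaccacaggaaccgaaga
Ccrl2: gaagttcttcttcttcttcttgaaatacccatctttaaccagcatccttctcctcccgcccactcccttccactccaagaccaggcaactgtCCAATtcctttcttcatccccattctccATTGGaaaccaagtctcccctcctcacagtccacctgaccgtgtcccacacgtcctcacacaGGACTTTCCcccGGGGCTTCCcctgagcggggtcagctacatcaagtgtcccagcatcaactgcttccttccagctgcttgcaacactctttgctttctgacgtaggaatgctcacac
Fpr1: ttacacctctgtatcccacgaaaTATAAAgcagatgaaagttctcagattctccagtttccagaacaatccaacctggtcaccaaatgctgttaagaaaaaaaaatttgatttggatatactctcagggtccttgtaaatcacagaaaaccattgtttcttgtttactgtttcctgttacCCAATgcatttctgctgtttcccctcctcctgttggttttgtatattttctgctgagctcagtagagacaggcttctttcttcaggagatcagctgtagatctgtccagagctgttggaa
The Ccrl2 window held 2 kappaB matches, starting 68 and 56 bases before the start, and a CCAAT match on each strand, while the windows of the other Ccrl2 starts held no match to any of these patterns. Among all 32851 promoter windows 18.5% held a kappaB match, and of the 8 receptor genes with a window only Ccrl2 and Ccr3 did. The Fpr2 window held TATA, CCAAT and PU.1 matches, and the Fpr1 window held TATA and CCAAT matches without a PU.1 match. The TATA match lay 130 bases before the start in Fpr2 and 227 bases before it in Fpr1. In Cxcr4 TATA matches lay 30 and 32 bases before the start. TATA matches were found for 3 of the 8 genes (Cxcr4, Fpr1 and Fpr2; 13.6% of all windows) and PU.1 matches for 3 (Ccr1, Ccr3 and Fpr2; 28.3% of all windows). CCAAT matches were found for 5 of the 8 (Ccr3, Ccrl2, Cx3cr1, Fpr1 and Fpr2; 37.4% of all windows). The AP-1 pattern was found for Ccr3 alone of the 8 (7.81% of all windows), and the interferon pattern for none (3.44% of all windows). In Ccr3 the PU.1 and kappaB matches overlap. A gene was counted if any of its windows held a match, while the shares are of windows, and Ccrl2 has 3 windows. A match is a run of letters and not a binding site. Ccr7 had no entry in the promoter table.

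Receptors for inflammatory and homeostatic chemokines formed a middle group, with ranges that overlapped each other. Ccr2, the receptor for Ccl2 and Ccl7 that brings monocytes out of the marrow, had 3.82 and 7.14 TPM in replicates 1 and 2, from expected counts of 410 and 626. Ccr1, a receptor for Ccl3, Ccl5 and related chemokines, had 3.46 and 7.04 TPM, from counts of 261 and 452. Cxcr4, the receptor for Cxcl12 that holds cells in the marrow, had 4.88 and 4.44 TPM, from counts of 214 and 173. Ccr1 and Ccr2 were below Cxcr4 in replicate 1 and above it in replicate 2, and the means were 5.48 ± 2.35, 5.25 ± 2.53 and 4.66 ± 0.311 TPM for Ccr2, Ccr1 and Cxcr4 (SD, n = 2). All 3 were below Fpr1 in both libraries. They sat between percentiles 67.9 and 69.9 of protein-coding genes. Cxcr4 (ENSMUSG00000045382.6) lies on chromosome 1 at 128588199 to 128592293, minus strand.

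Ccr7, Ccr3 and Cx3cr1 formed the low end, with ranges of the 2 values that did not overlap. Ccr7, the receptor for Ccl19 and Ccl21 that guides dendritic cells to lymph nodes, had 0.73 and 0.69 TPM in replicates 1 and 2, from counts of 37 and 30 (ENSMUSG00000037944.8, chromosome 11, 99144196 to 99155077, minus strand). Ccr3, the eotaxin receptor of eosinophils, had 0.18 and 0.40 TPM, from counts of 16 and 30. Cx3cr1, the fractalkine receptor of monocytes and resident macrophages, had 0.16 and 0.07 TPM, from counts of 16 and 6. Ccr3 and Cx3cr1 had equal counts in replicate 1, so their order was not resolved. In a second deposited quantification Cx3cr1 was above Ccr3 and Ccr7. These counts are above the floor of 3 counts used for a gene at 0. Markers of the cells that are known for Ccr7 and Ccr3 were also low. Of 5 dendritic cell markers 1 reached 1 TPM in both libraries, Batf3 at 6.99 and 2.43 TPM, and Cd209a had no count; the list summed to 8.02 and 3.55 TPM. Of 4 eosinophil markers 0 reached 1 TPM, with sums of 0.04 and 0.26 TPM and Ear6 at a count of 0 in both libraries. In a second deposited quantification the markers Flt3, Siglech and Siglecf had higher counts, given at the end. Whether a few such cells contributed was not tested.

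The macrophage label matched the markers. All 8 macrophage markers were above 10 TPM in both libraries, led by Lyz2 at 1368 and 1126 TPM, Mpeg1 at 805 and 667 TPM and Adgre1 at 604 and 527 TPM, with Itgam lowest at 72.1 and 45.6 TPM. Of 29 markers of other cell types 2 reached 1 TPM in both libraries, and 8 had a count of 0 throughout. Their summed TPM was 16.25 in replicate 1 and 14.5 in replicate 2, against 3536 and 2874 for the macrophage list. The pair was Batf3, given above, and the monocyte marker Ly6c2 at 4.71 and 6.10 TPM. The neutrophil markers, of interest because neutrophils also carry Fpr1 and Fpr2, summed to 2.58 and 3.46 TPM, with none of 6 at 1 TPM in both libraries and Ly6g at a count of 0. B cell markers summed to 0.84 and 0.98 TPM, T and NK cell markers to 0.03 and 0.15 TPM and mast cell and basophil markers to 0.03 and 0.02 TPM. These low sums depended on the quantification. In a second deposited quantification the T cell marker Cd3d also reached 1 TPM in both libraries, from estimated counts of 190 and 370. Further markers with higher counts there are given at the end. All 8 macrophage markers were above 10 TPM in both libraries there as well.

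Between the libraries, Ccr1 and Ccr2 were higher in replicate 2, and Ccrl2 and Fpr1 were lower. Expected counts of replicate 2 over replicate 1, scaled with TMM factors, gave a log2 ratio of 1.05 for Ccr1, with an exact 95% interval of the counts of 0.82 to 1.27, and of 0.87 for Ccr2 (0.68 to 1.05). Ccrl2 had -0.51 (-0.70 to -0.32) and Fpr1 -0.31 (-0.56 to -0.07). The intervals of Fpr2, at -0.12, Cxcr4, at -0.05, and Ccr7, at -0.05, included 0. Intervals cover counting error only and set 1 library against 1 other, so no p-value belongs to them. A gene was called apart when its log2 ratio was at least 1 in size and its mean count at least 100. Of the 6 receptor genes with such a count only Ccr1 was apart, beside 2.00% of the 10198 genes that met the count minimum, or 0.824% counting those higher in replicate 2 only. In the size of the ratio Ccr1 lay at percentile 98.3 of these genes and Ccr2 at 96.9, beside 86.4 for Ccrl2. The ratios of the 6 genes had a median of -0.09. Ccr3, at 1.14 (0.24 to 2.14), had too few counts to be called. The biological coefficient of variation between the libraries, the square root of edgeR's common dispersion over all genes past its filter, was 0.186.

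**Figure D2:**
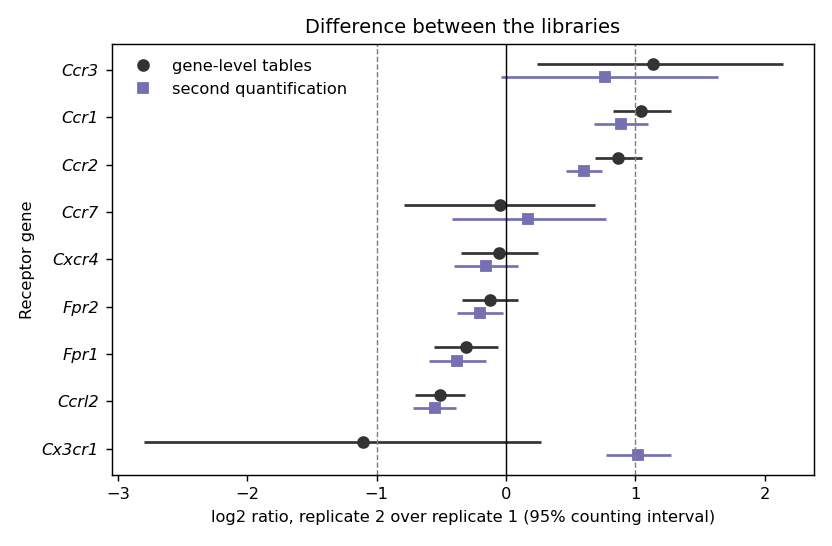
Log2 ratio of replicate 2 over replicate 1 for each receptor gene in the gene-level tables and in a second deposited quantification made straight from the reads, with exact 95% intervals of the counts as horizontal lines and dashed lines at the threshold of 1 in either direction. Ccr1 and Ccr2 lie right of 0 and Ccrl2 and Fpr1 left of 0 in both quantifications. Cx3cr1 and Ccr7 change side, and for Ccr7 both intervals include 0.

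Marker levels also moved between the libraries. None of the 8 macrophage markers was higher in replicate 2, their median log2 ratio was -0.41 and Fcgr1 was apart at -1.04. The monocyte marker Ly6c2 had 0.36, from expected counts of 91.0 and 98. Of the sums for other cell types given above, those of dendritic cell markers and of mast cell and basophil markers were lower in replicate 2. Those of neutrophil, eosinophil, B cell and T and NK cell markers were higher. Several rest on few counts, so that no direction can be read from them. Cpa3 had counts of 1 and 0 and Ms4a2 of 0 and 1, for mast cells and basophils. For T and NK cells Cd8a had 2 and 2 and Cd3d 0 and 4. The B cell marker Cd79b had 20 and 20, and the neutrophil marker Mmp8 59 and 61. The part of cell makeup and of starting RNA amount in the ratios of Ccr1 and Ccr2 was not tested.

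Ccr1, Ccr3 and Ccr2 stand together on chromosome 9 with Ccr1l1, in a stretch from Ccr1 to Ccr2 that spans 151.434 kb (123962124 to 124113557). Ccr1 (ENSMUSG00000025804.5) runs from 123962124 to 123968692 on the minus strand, Ccr3 (ENSMUSG00000035448.9) from 124021972 to 124031689 and Ccr2 (ENSMUSG00000049103.14) from 124101950 to 124113557, both on the plus strand. Ccr1, Ccr3 and Ccr2 all had the higher value in replicate 2, with the ratios above. For Ccr3 this rests on counts of 16 and 30. In a second deposited quantification its ratio was 0.77 (-0.04 to 1.64), an interval that includes 0. Ccr1l1, with expected counts of 7 and 3, had the lower value in replicate 2. At 0.26 and 0.13 TPM it stood between Ccr3 and Cx3cr1. Ccr1 and Ccr2 were identical at 63.7% of aligned coding bases, with a longest identical run of 15 bases. The posterior SD of the count of Ccr2 in the authors' table, a measure of the uncertainty of read assignment, was 0.63 in replicate 1 and 0.99 in replicate 2, small beside the counts of 410 and 626. Ccr1 and Ccr3 were identical at 69.5% of aligned coding bases, with a longest identical run of 47 bases.

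Among the 31 receptor genes compared here, the 9 genes took ranks 2 to 7, 13, 14 and 16 by mean TPM. Of the genes compared, Cmklr1, at 17.0 ± 7.67 TPM (SD, n = 2), was ahead of Fpr2, with a range that overlapped that of Fpr2. In a second deposited quantification Cmklr1 had 47.4 and 29.7 TPM in replicates 1 and 2. Fpr2 had 8.46 and 9.91 TPM there, so the ranges did not overlap. Of 16 other chemokine receptor genes 4 reached 1 TPM in both libraries, a count that was 2 in a second deposited quantification and 1 at a threshold of 2 TPM. These were Cxcr6, a receptor for Cxcl16, at 4.94 and 3.71 TPM, Ccr9, the Ccl25 receptor, at 1.62 and 1.41 TPM, Cxcr3, the receptor for interferon-induced chemokines, at 1.73 and 1.08 TPM, and the scavenging receptor Ackr4 at 1.33 and 1.22 TPM. Cxcr6 came next below Cxcr4 with an overlapping range. Ccr10, at 1.11 and 0.86 TPM, stood just above Ccr7, and Xcr1, at 0.08 and 0.12 TPM, just below Cx3cr1. A further 6 of the 16 had no expected count in either library: Ackr1, Ackr2, Ackr3, Ccr6, Ccr8 and Cxcr2. Of these, Cxcr2 had estimated counts of 205 and 358, Ackr3 of 14 and 12 and Ccr6 of 7.56 and 3.46 in the second quantification. Ackr1, Ackr2 and Ccr8 were at 0 there as well.

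**Figure D3:**
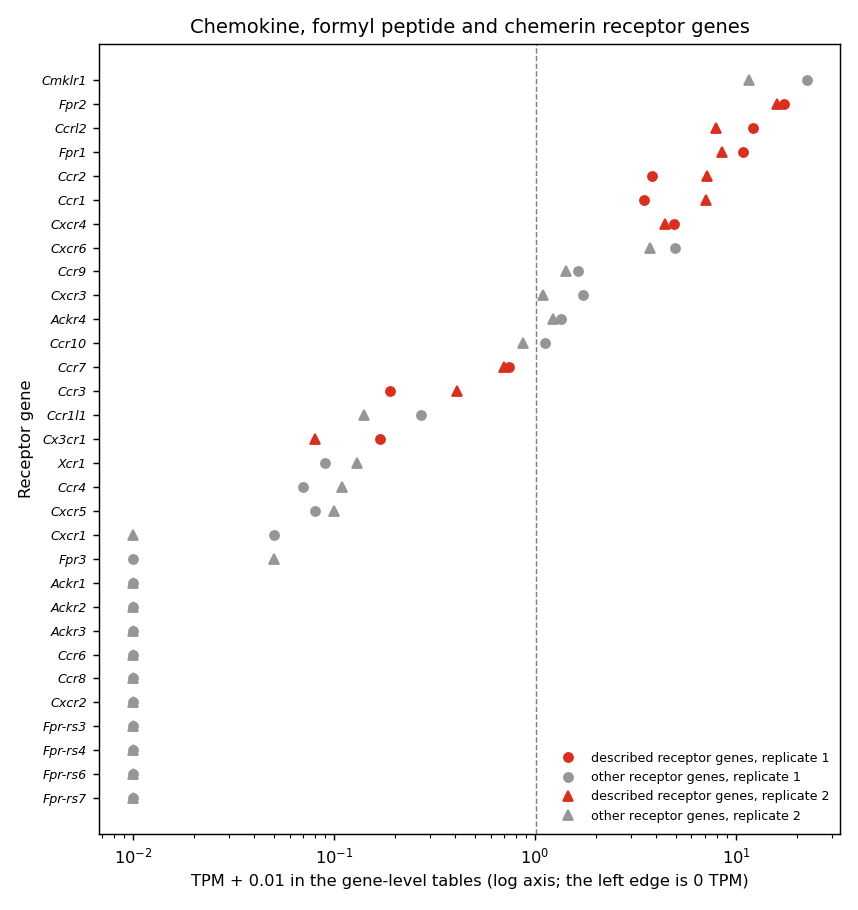
TPM of the 9 described receptor genes and the other receptor genes on a log axis, with 0.01 added so that genes at 0 TPM appear at the left edge; circles are replicate 1 and triangles replicate 2. Of the 9, 6 lie right of the dashed line at 1 TPM in both libraries, and of the genes plotted Cmklr1 is the one above Fpr2 by mean.

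Each receptor's ligands were unevenly represented. Of 18 ligand genes 10 reached 10 TPM in both libraries, beside 19.7% of protein-coding genes, and 8 were under 1 TPM in both. The highest were inflammatory chemokines, of which Ccl3 and Ccl5 bind Ccr1, with Ccl5 at 858 and 499 TPM in replicates 1 and 2, Ccl3 at 100 and 123 TPM and Ccl4 at 137 and 85.9 TPM. Ligands of further receptors, named here for their receptor and after their values were seen, follow. The Ccr2 ligands Ccl7 and Ccl2 had 84.0 and 94.3 TPM and 69.8 and 54.3 TPM. Anxa1, whose product acts on Fpr2, had 22.8 and 23.0 TPM. Ccl5 and Ccl7 also bind Ccr3, whose eotaxin ligands Ccl11 and Ccl24 had 0.16 and 0.05 TPM and 0.36 and 0 TPM. In a second deposited quantification Ccl11 had estimated counts of 30 and 25, and Ccl24 of 107 and 92. Expected counts were 4 and 1 for Ccl11 and 8 and 0 for Ccl24. Ligand genes of Cxcr4, Cx3cr1 and Ccr7 had few or no counts. Cxcl12, for Cxcr4, had counts of 1 and 0, Cx3cl1, for Cx3cr1, 4 and 0, and Ccl19, for Ccr7, 1 and 0, while Ccl21a and the Fpr2 ligand gene Camp were at a count of 0 in both. In the second quantification Camp had estimated counts of 12 and 6, and Ccl21a stayed at 0. Of the 10 ligand genes that met the count minimum of 100, 2 were apart between the libraries, Ccl8 at -1.70 and Ccl12 at -1.09. Among all 10198 genes that met this minimum 2.00% were apart.

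Genes of the machinery downstream of the receptors were all detected. All 16 signal transduction genes reached 1 TPM in both libraries and 14 reached 10 TPM. Among all protein-coding genes 44.4% reached 1 TPM in both libraries and 19.7% reached 10 TPM. The highest were Dock2, an exchange factor for Rac in leukocyte migration, at 107 and 89.4 TPM, Gnb1, a G protein beta subunit, at 78.6 and 75.0 TPM, and Pik3r5, a regulatory subunit of the phosphoinositide 3-kinase that G proteins activate, at 69.9 and 74.5 TPM. The lowest was the phospholipase gene Plcb3 at 8.41 and 7.26 TPM. All 12 desensitisation genes reached 1 TPM in both libraries and 8 reached 10 TPM. Arrb2, a beta-arrestin, had 147 and 141 TPM, the receptor kinase gene Grk2 had 64.7 and 73.8 TPM, and Rgs1, which speeds up the switching off of Gi, had 37.9 and 43.1 TPM. Grk5 was lowest at 1.63 and 2.50 TPM. None of the 16 and none of the 12 genes was apart between the libraries. Fpr2, the highest of the 9 receptor genes, was thus below the median of the signal transduction list, which was 35.7 and 30.8 TPM in replicates 1 and 2.

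The 9 receptor genes have 18 annotated transcripts, all of the protein-coding type, so no part of their TPM went to transcripts outside that type. Among the 9791 protein-coding genes at 1 TPM or more in both libraries, 19.7% had over 50% of their transcript TPM outside protein-coding transcripts in both. Ccr1, Ccr3, Ccr7 and Fpr1 have 1 transcript each and the other 5 genes have several. In 6 of the 9 genes every transcript carries its whole coding sequence in 1 exon, the exceptions being Ccr7, Cxcr4 and a transcript of Fpr2. In Ccr2 the share of the gene's TPM differed among transcripts that differ mainly outside the coding sequence. Ccr2-202, which is annotated as 1 exon, held 58.9% in replicate 1 and 49.3% in replicate 2, Ccr2-203 held 25.8% and 22.5%, Ccr2-204 held 9.28% and 10.03%, and Ccr2-201 held 6.06% and 18.2%. In Ccrl2 the leading transcript was Ccrl2-203 with 63.1% and 60.6%, followed by Ccrl2-201 with 29.9% and 36.4%. In Fpr2 the shares were 76.4% and 63.6% for Fpr2-201 and 23.6% and 36.4% for Fpr2-202, and in Cxcr4 transcript Cxcr4-201 held 93.4% and 100%. Cx3cr1-201 held all of the TPM of Cx3cr1.

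**Figure D4:**
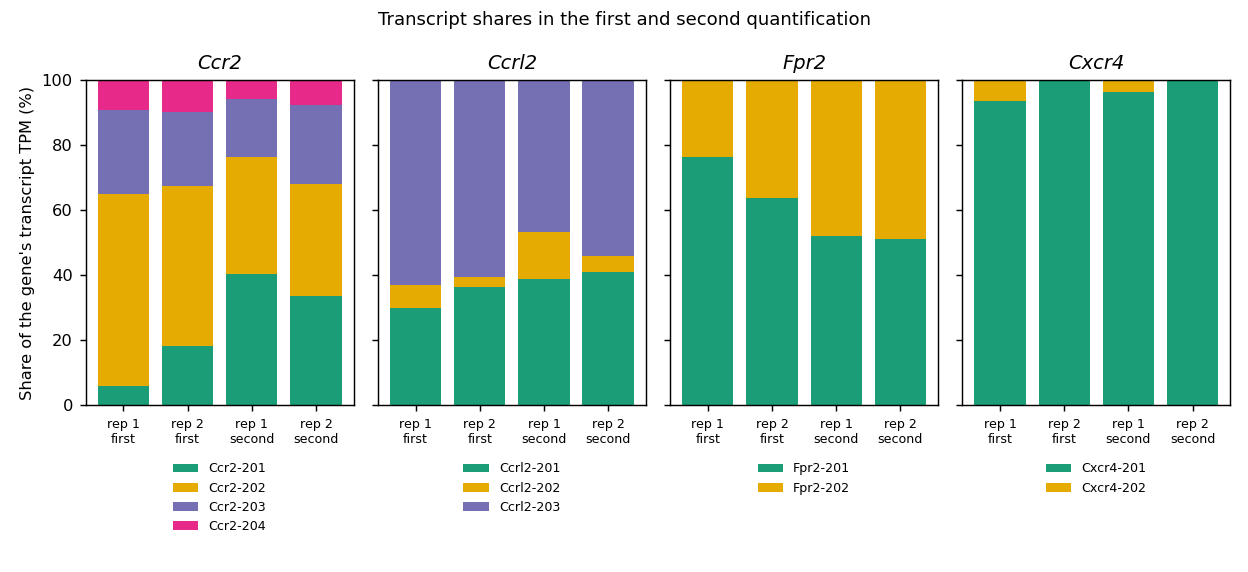
Share of each gene's transcript TPM by transcript, in percent, for 4 genes with several transcripts; in each panel the left pair of bars is replicates 1 and 2 of the transcript tables with expected counts and the right pair is the second quantification. Ccr2-202 leads Ccr2 in the left pair, while in the right pair Ccr2-201 and Ccr2-202 hold like shares.

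The shares depended on the quantification. The authors deposited a second transcript quantification made straight from the reads, and in it Ccr2-201 held 40.2% in replicate 1 and 33.6% in replicate 2, and Ccr2-202 held 36.1% and 34.5%. Fpr2-202 held 47.9% and 49.0% there, close to Fpr2-201 at 52.1% and 51.0%. Ccrl2-203 remained the leading transcript of Ccrl2, with 46.7% and 54.0%, and Cxcr4-201 of Cxcr4, with 96.3% and 100%. Transcripts of the same gene share bases, and the split of reads among them is uncertain.

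At the gene level the second quantification gave like counts for 8 of the 9 receptor genes and a far higher one for Cx3cr1. Over 11771 protein-coding genes whose mean expected count reached 10, the estimated count of the second quantification was a median of 1.34 times the expected count in replicate 1 and 1.73 times in replicate 2. The ratios of the other 8 receptor genes lay between 1.08 and 1.87. Cx3cr1 had estimated counts of 189 and 424, against expected counts of 16 and 6, or 11.8 and 70.6 times as many. A ratio of at least 4 in both libraries was found for 4.04% of the 11771 genes, a threshold chosen after the values of Cx3cr1 were seen. The level of Cx3cr1 in the second quantification was 0.636 and 1.76 TPM, which placed it above Ccr7 at 0.307 and 0.470 TPM, and its log2 ratio of replicate 2 over replicate 1 was 1.02 (0.77 to 1.28) there, against -1.10 (-2.80 to 0.27) in the gene-level tables. Both the rank of Cx3cr1 and the sign of its ratio therefore differ between the deposited tables. Cx3cr1 (ENSMUSG00000052336.7, chromosome 9, 119901616 to 120069879, minus strand) is annotated over 168.264 kb and overlaps 9 other annotated genes, whereas 7 of the receptor genes overlap none. The use of strand in counting is not given in the sources used here, and the part of the overlaps was not tested. Nearly all of the estimated count went to Cx3cr1-201, with 189 and 418, whose span of 120048683 to 120068296 is a small part of the gene.

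**Figure D5:**
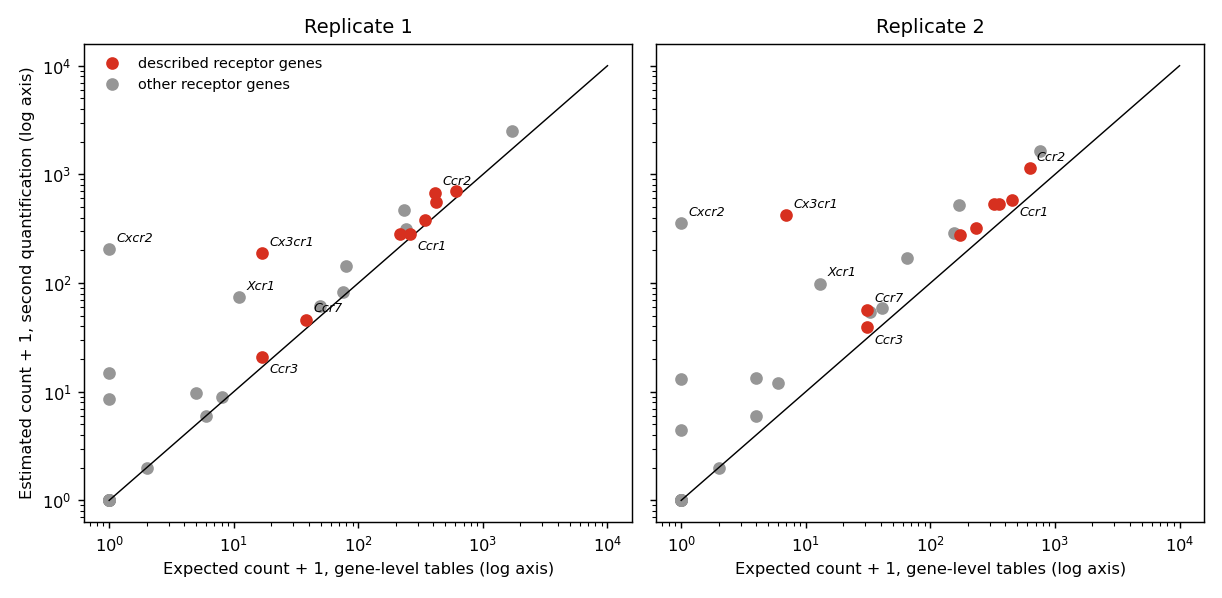
Estimated count of the second quantification against expected count of the gene-level tables for the receptor genes in each library, both with 1 added and on log axes; red points are the 9 described receptor genes, grey points the other receptor genes and the line marks equal counts. Cx3cr1, Xcr1 and Cxcr2 stand far above the line in both libraries.

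Among the other receptor genes the same was seen for Cxcr2, the receptor for neutrophil-attracting chemokines, with estimated counts of 205 and 358 against expected counts of 0 and 0, and for Xcr1, with 72.8 and 97.6 against 10 and 12. These were picked out after their values were seen. For the 6 receptor genes above 1 TPM, means in the second quantification kept Fpr2, Ccrl2, Fpr1 and Ccr2 in ranks 1 to 4. Cxcr4 was ahead of Ccr1 by mean. Its TPM was 8.46 in replicate 1 and 9.91 in replicate 2 for Fpr2, 4.99 and 4.28 for Ccrl2 and 4.14 and 4.31 for Fpr1. Ccr2 had 2.37 and 4.70 TPM, which put it above Ccrl2 and Fpr1 in replicate 2. By its ratios Ccr1 was at 0.89 (0.68 to 1.10), Ccr2 at 0.60 (0.46 to 0.74) and Ccrl2 at -0.55 (-0.72 to -0.39). Ccr1 was therefore not apart there, and Cx3cr1 was the 1 receptor gene that was, beside 3.31% of the genes that met the minimum of 100 in that quantification, 2.03% being higher in replicate 2.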

How the data were processed

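Total RNA-seq of 2 libraries of 1 group was used, with expected counts of 22907877 and 18612405 in replicates 1 and 2 over annotated genes. A further 26345 entries of no annotated gene held 1.01% and 0.336% of counts and stayed out of library sizes. The expected counts, TPM, TPM intervals and posterior SDs are the authors' own, per the file headers, as are the percent of a gene's TPM per transcript. Estimated counts and TPM of the second quantification were also deposited by the authors. The notes beside the files give mm10, GENCODE M21, alignment to the transcriptome for the gene-level tables and no alignment for the second quantification. Program names and strand settings were not given in the sources used here. Since both refer reads to annotated transcripts, intronic reads have no target of their own, which matters for nuclear RNA. TPM is a share: in the gene-level tables protein-coding genes held 27.5% and 29.5% of it, and in the second quantification 15.0% and 21.2%, so TPM levels of the same gene differ between them. The second quantification lacks 86 genes.

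Expected counts were rounded. TMM factors came from edgeR 4.0.16 in R 4.3.3 on the 14892 genes past filterByExpr, which 8 of the 9 receptor genes passed (not Cx3cr1), with a prior count of 0.5. DESeq2 1.42.0 gave an alternative scaling. Intervals on ratios are Clopper-Pearson, and with the floor of 3 counts they cover counting error only. No p-value was computed. The libraries are called biological replicates per the labels. The ratio script was tested on simulated data. Coding identity came from a global alignment, and sequences from GENCODE M21 transcripts and the RefSeq promoter table. Python 3.11.15, numpy 2.4.6, pandas 2.3.3 and matplotlib 3.10.9 were used. The members and lists were chosen with earlier results of these data known. Named genes are all 9 receptor genes, the 3 highest and the lowest of each other list, other receptor genes at 1 TPM in both libraries and neighbours in the order of levels. A gene of the receptor lists and a marker gene are left out of every list and count and are not reported here. Further list genes enter the counts without being named. Alternatives were the second quantification, TPM rescaled over protein-coding genes, other thresholds, pseudocounts, scalings and filters, and leaving out each library.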

Additional observations from a re-analysis of the deposited data

How the results depend on the processing

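No paired analysis was possible because the series has 1 group. The number of receptor genes at 1 TPM in both libraries stayed between 6 and 8 under every alternative run, and the lists of other receptors, ligands, signalling and desensitisation genes gave 43 genes, with 39 to 49 under the alternatives. Within them the other chemokine receptors at 1 TPM, 4 of 16, were 2 in the second quantification, 8 with its TPM rescaled over protein-coding genes and 1 at a threshold of 2 TPM. The median level of the 9 genes, 2.40 on the log2 scale, was 1.47 in the second quantification, 4.19 with TPM rescaled over protein-coding genes and 3.91 with both, the last added after the data were seen. Without either library in turn it ranged from 1.97 to 2.84. Lowering the minimum mean count from 100 to 10 raised the genes apart from 1 to 3, adding Ccr3 and Cx3cr1, both with few counts. In the second quantification 1 gene was apart, but this was Cx3cr1 at 1.02 and not Ccr1 at 0.89. Log2 ratios of the 9 genes kept their values within the counting interval under DESeq2 size factors, library totals and a prior count of 2, while in the second quantification those of Ccr2 (0.60) and Cx3cr1 moved past it. The cause was not tested. Depth limits Ccr7, Ccr3 and Cx3cr1, whose expected counts were at most 37 and whose ratios have wide intervals: -0.79 to 0.69 for Ccr7, 0.24 to 2.14 for Ccr3 and -2.80 to 0.27 for Cx3cr1.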

Other observations

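The gap between the quantifications seen for Cx3cr1 and Cxcr2 also appeared in markers of lymphocytes and of other cell types. These were picked out after their values were seen. Cd3d, a chain of the T cell receptor complex, had estimated counts of 190 and 370 in replicates 1 and 2 of the second quantification, against expected counts of 0 and 4. Cd8a, a T cell co-receptor, had 80.3 and 150.02 estimated counts against 2 and 2 expected counts. Ms4a1, the B cell antigen CD20, had 88.9 and 58.4 against 2 and 3. The dendritic cell markers Siglech and Flt3 had 88.7 and 70.6 against 12 and 8, and 47.7 and 66.5 against 8 and 16. The eosinophil marker Siglecf had 25 and 43 against 2 and 9. Cpa3, a mast cell marker, had 12 and 19 against 1 and 0. Ncr1 and Klrb1c, markers of natural killer cells, were at 0 in both libraries of both quantifications. So were the dendritic cell marker Cd209a and the eosinophil marker Ear6. The cause was not tested.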
